A study of Mus musculus with 18 samples.

Results

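Replication-dependent histone genes encode the core histones H2A, H2B, H3 and H4 and the linker histone H1 that package newly made DNA. They were taken as the rows of the deposited gene table whose name was H1f1 to H1f5 or began with H2ac, H2bc, H3c or H4c followed by a number, and that held at least 20 reads over the 18 libraries. Of 21959 genes, 63 had such a name and 45 met the minimum: 5 of 5 H1 genes, 5 of 17 H2A, 15 of 17 H2B, 9 of 12 H3 and 11 of 12 H4 genes. By their chromosome in the table, 42 of the 45 lay on chromosome 13 and 3 on chromosome 3; no source used here names the build of that table. Just inside the minimum were H2ac22 with 23 reads and H2ac23 with 24, and just outside were H3c2 with 18 and H2ac24 with 11.

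All libraries came from MOVAS, an immortalised line of mouse aortic smooth muscle cells, with 3 libraries in each of 6 groups. The groups titled D_I, H_I and B_I were labelled with isoliensinine, a lotus alkaloid; the labels do not spell out the first letters, which are read here as doxorubicin (D), hydrogen peroxide (H) and no stressor (B). The Dox group received doxorubicin, which traps topoisomerase II on broken DNA, the H2O2 group received the oxidant hydrogen peroxide, and the Blank group received no treatment. Doxorubicin and H2O2 were used in the study to make the cells senescent; no source used here gives doses or times.

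Histone mRNAs of this class are made mainly in S phase and differ from other mRNAs in that most end in a conserved stem-loop in place of a poly-A tail. Stem-loop binding protein (Slbp) holds that end, and the U7 particle, with Lsm10 and Lsm11, directs the cut behind it; when DNA synthesis stops, these mRNAs are degraded. Some of the genes can also be read through to a poly-A signal further on. RNA here was captured on poly-T beads, so the values count what the beads retained, and total histone mRNA was not measured.

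Searched as a fixed pattern, the stem-loop was found behind the stop codon in 31 of the 45 GENCODE M21 transcripts, 25 to 41 bases after it. It was not found in the annotated transcript of the other 14. In 9 of those the transcript ended within 60 bases of its stop codon, so little or nothing behind it could be searched. The 6 stem-loops below belong to the linker and H4 genes described most closely here and to 1 H3 gene. They are shown 5′ to 3′ with the 16 bases of the stem-loop in capitals.
H1f2: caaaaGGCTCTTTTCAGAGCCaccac
H1f4: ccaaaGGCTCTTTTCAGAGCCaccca
H4c3: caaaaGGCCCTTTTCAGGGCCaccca
H4c4: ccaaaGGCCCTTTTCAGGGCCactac
H4c9: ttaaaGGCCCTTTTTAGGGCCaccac
H3c3: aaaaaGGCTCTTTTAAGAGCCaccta
In H1f2 the annotated transcript ran 840 bases past the stem-loop and held a poly-A signal (AATAAA or ATTAAA) in its last 60 bases. H4c9 ran 330 bases further and also held one. H1f4 and H4c4 ran 1153 and 770 bases further without such a signal in the last 60. H2bc4 had no stem-loop in its transcript, which went on for 742 bases behind the coding sequence. H2bc21 had none over 2192 bases and held a poly-A signal. The transcript of H4c12 ended at its stop codon, so nothing behind it could be searched.

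Upstream sequences are shown for H1f2 and H1f4, linker genes that moved in opposite directions after doxorubicin. They are the 250 bases before the start in RefSeq GRCm38.p6, chr13:23738557-23738806 on the plus strand for H1f2 and chr13:23622559-23622808 on the minus strand for H1f4, with capitals for the H1 box AAACACA, the CCAAT box and TATAAA.
H1f2: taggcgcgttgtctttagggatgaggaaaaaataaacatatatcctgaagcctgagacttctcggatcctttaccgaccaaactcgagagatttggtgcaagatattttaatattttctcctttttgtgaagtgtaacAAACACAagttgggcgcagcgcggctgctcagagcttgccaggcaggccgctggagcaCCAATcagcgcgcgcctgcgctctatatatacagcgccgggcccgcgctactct
H1f4: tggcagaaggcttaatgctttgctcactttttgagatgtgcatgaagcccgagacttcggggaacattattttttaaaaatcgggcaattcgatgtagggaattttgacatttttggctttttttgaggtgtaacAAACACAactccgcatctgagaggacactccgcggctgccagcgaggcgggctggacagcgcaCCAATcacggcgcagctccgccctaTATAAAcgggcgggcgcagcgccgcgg
Both held the H1 box and a CCAAT box; TATAAA was found only in H1f4, and its absence from H1f2 says only that these letters are not in this window. Searched on both strands, AAACACA lay before 4 of 5 H1 genes, against 6.25% of 32851 RefSeq promoters of that length. It also lay before 1 of 13 H2B genes and before no H2A, H3 or H4 gene. CCAAT lay before all 5 H1, all 5 H2A and all 13 H2B genes with an entry, 6 of 7 H3 and 3 of 10 H4 genes, against 33.8% of promoters. The octamer ATTTGCAT, the site of Oct-1, lay before 5 of 13 H2B and 2 of 5 H2A genes and before no H1, H3 or H4 gene, against 1.60% of promoters. TATAAA lay before 22 of the 40 members with an entry, against 12.4% of promoters. H2bc4 and H2bc21 are among the 5 members without an entry. The windows of H2ac8 and H2bc8, H2ac13 and H2bc13, H2ac22 and H2bc22, and H2ac23 and H2bc23 overlap on opposite strands. Sites in such an overlap are counted for both genes, including the octamer of H2ac8 and H2bc8. H2bc23 and H2bc24 have the same sequence, so these counts are not of separate sites.

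Library totals ran from 12859609 to 23284077 reads; the 3 Dox libraries held at least 20140802 and no other library more than 17955971. All 8 smooth muscle markers had reads, and their summed level ran from 1470.4 to 5641 CPM, highest in Blank replicate 4 and B_I replicate 3. The 10 colon epithelium markers, which these cells should lack, summed to 792, 235 and 304 CPM in H_I, 284, 104 and 67.1 in B_I, 58.8, 47.5 and 181 in H2O2 and 197, 139.7 and 62.7 in Blank libraries. In D_I and Dox libraries that sum was 160.4, 159 and 208 and 266, 95.1 and 147 CPM. Nothing in the labels says that replicates came from separate cultures, although the study calls them biological replicates; the p-values rest on the spread between these libraries, which may be technical.

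The histone genes were low. Per length, H1f2 averaged 11.005 FPKM over the 18 libraries, H2bc4 7.41 and H4c12 5.42, and the other 42 averaged 4.25 or less. H1f2 and H2bc4 held 24.8% and 12.6% of the reads of all members. Levels below are CPM, reads of a gene scaled to the library's TMM-adjusted total, given by replicate in the order 1, 2, 3 (1, 2, 4 in Blank). The filter on low counts kept 37 members: 5 H1, 1 H2A, 12 H2B, 9 H3 and 10 H4 genes. The other 8, with 23 to 81 reads each, were H2ac8, H2ac13, H2ac22, H2ac23, H2bc7, H2bc22, H2bc24 and H4c17 and were not tested. Replicates of the tested members varied more than those of other genes, with a median biological coefficient of variation of 0.559 against 0.193 over the 13375 genes tested.

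In cells given doxorubicin alone, H1f2 and H2bc4 rose and most of the other tested members were lower. The rank of these 2 as highest in FPKM is over all 18 libraries, Dox included. In Blank libraries alone, H4c4 held more reads (216) than H2bc4 (144). H2bc4 rose 3.98-fold and H1f2 2.16-fold, whereas 9 genes of the H1, H2B, H3 and H4 families fell 4.13- to 17.9-fold. At an adjusted p under 0.05 over all genes (edgeR, quasi-likelihood; Benjamini and Hochberg), 11 of 37 members were called in Dox against Blank, where 21.7% of all genes tested were called. The 9 lower calls stand beside a background of 11.4% and the 2 higher ones beside 10.3%. The median log2 fold change of the tested members was -1.57, with 30 below 0, beside 0.08 over all genes tested. In bulk RNA, fewer cells that make a transcript and less of it per cell cannot be told apart.

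**Figure D1:**
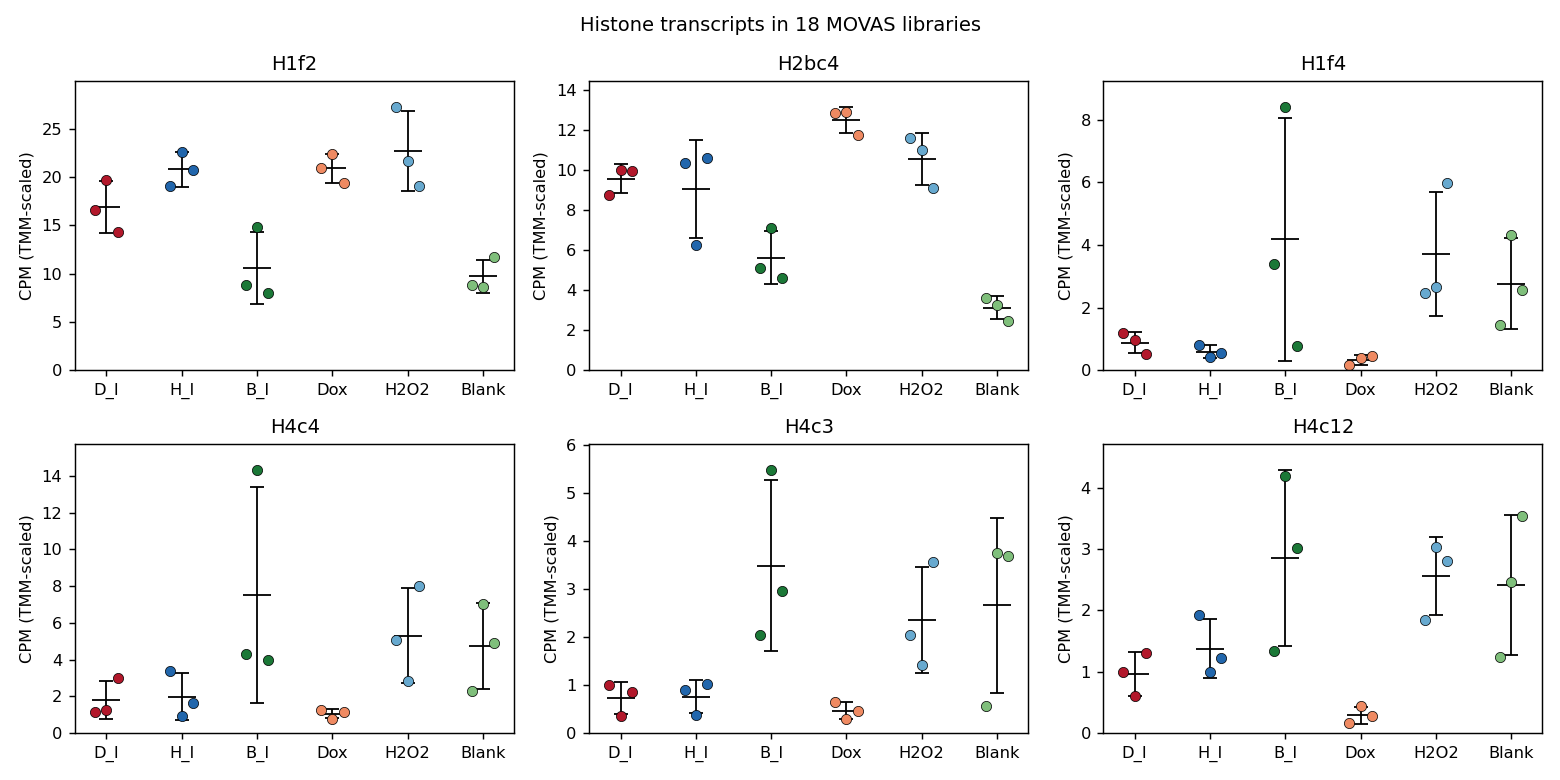
TMM-scaled CPM (y axis, linear, from 0) of 6 histone genes in each library, by group (x axis); points are libraries, and the bar and whiskers give the mean and SD of 3. H1f2 and H2bc4 lie higher in Dox and H2O2 than in Blank libraries, while H1f4, H4c4, H4c3 and H4c12 are lowest in Dox and spread widely in B_I, H2O2 and Blank.

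Among the linker histones, H1f2 had 16.6, 19.7 and 14.3 CPM in D_I, 19.03, 22.6 and 20.7 in H_I, 8.79, 14.8 and 8.02 in B_I, 20.96, 22.4 and 19.4 in Dox, 27.2, 21.7 and 19.1 in H2O2 and 8.78, 8.63 and 11.7 in Blank libraries. All Dox and H2O2 values lay above every Blank value, and the rise in Dox over Blank was log2 fold change 1.11, SE 0.22, adjusted p = 0.000825 by edgeR. H1f4 went the other way, with 1.18, 0.952 and 0.511 CPM in D_I, 0.812, 0.432 and 0.540 in H_I, 3.38, 8.39 and 0.770 in B_I, 0.162, 0.388 and 0.453 in Dox, 2.47, 2.67 and 5.98 in H2O2 and 1.43, 4.31 and 2.55 in Blank libraries. Each Dox library held 4 to 10 reads of it, against 23 to 70 in Blank, and the fall was log2 fold change -3.04, SE 0.72, adjusted p = 0.00411. H1f5 had 1.06, 0.238 and 0.568 CPM in D_I, 1.33, 0.493 and 0.540 in H_I, 2.91, 3.68 and 1.54 in B_I, 0.850, 0.582 and 0.272 in Dox, 1.55, 2.05 and 3.81 in H2O2 and 0.996, 2.03 and 4.13 in Blank, with log2 fold change -2.04, SE 0.67, adjusted p = 0.0330 in Dox over Blank and no overlap between those groups. H1f1 had 0.747, 0.179 and 1.02 CPM in D_I, 2.14, 0.247 and 0.540 in H_I, 2.97, 6.97 and 2.89 in B_I, 1.13, 0.534 and 0.634 in Dox, 2.68, 2.73 and 6.76 in H2O2 and 1.99, 4.68 and 1.05 in Blank; Dox and Blank overlapped and it was not called there. H1f3, the remaining linker gene, was called in no comparison and ranged from 0.116 CPM to 6.20 CPM, both in B_I.

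Core histone H4 gave 4 of the 9 lower calls in Dox. H4c12 had 0.996, 0.595 and 1.31 CPM in D_I, 1.92, 0.987 and 1.21 in H_I, 1.34, 4.20 and 3.02 in B_I, 0.162, 0.437 and 0.272 in Dox, 1.83, 3.04 and 2.80 in H2O2 and 1.25, 2.46 and 3.53 in Blank libraries. The 3 Dox libraries held 4, 9 and 6 reads of it, against 20, 40 and 47 in Blank, a fall of log2 fold change -3.04, SE 0.61, adjusted p = 0.000985. H4c4 had 1.12, 1.25 and 3.01 CPM in D_I, 3.39, 0.925 and 1.62 in H_I, 4.31, 14.3 and 3.98 in B_I, 1.25, 0.776 and 1.13 in Dox, 5.08, 2.85 and 7.999 in H2O2 and 2.30, 7.03 and 4.88 in Blank libraries. Every Dox value lay below every Blank value (log2 fold change -2.16, SE 0.59, adjusted p = 0.0117). H4c3 had 0.996, 0.357 and 0.852 CPM in D_I, 0.885, 0.370 and 1.01 in H_I, 2.04, 5.49 and 2.95 in B_I, 0.647, 0.291 and 0.453 in Dox, 2.04, 1.43 and 3.57 in H2O2 and 0.560, 3.76 and 3.68 in Blank libraries. Here Blank replicate 1 lay within the Dox range and the other Blank values far above it (log2 fold change -2.49, SE 0.68, adjusted p = 0.0109). H4c6 had 0.747, 1.07 and 0.682 CPM in D_I, 1.40, 0.678 and 1.08 in H_I, 0.989, 2.45 and 0.513 in B_I, 0.445, 0.291 and 0.272 in Dox, 2.54, 1.43 and 2.64 in H2O2 and 0.436, 4.13 and 1.65 in Blank libraries. It overlapped in the same way through Blank replicate 1 (log2 fold change -2.59, SE 0.75, adjusted p = 0.0157). H4c11 had 0.249, 0.238 and 0.511 CPM in D_I, 1.62, 0.185 and 0.877 in H_I, 1.92, 3.23 and 0.321 in B_I, 0.566, 0.243 and 0.0453 in Dox, 1.55, 2.42 and 2.41 in H2O2 and 0.747, 1.73 and 0.751 in Blank libraries; it was not called in Dox against Blank (adjusted p = 0.15 by edgeR). H4c9, with more reads over the 18 libraries than any H4 gene but H4c4, was not called either (log2 fold change 1.27, SE 0.49, adjusted p = 0.0681 by edgeR). It had 1.58, 3.40 and 2.76 CPM in Dox and 0.311, 1.05 and 1.88 CPM in Blank libraries, which overlapped.

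Core histone H3 gave 2 lower calls in Dox, both from few reads. H3c7 had 0, 0.595 and 0.170 CPM in D_I, 0.664, 0.185 and 0.0675 in H_I, 0.349, 0.839 and 0.834 in B_I, 0.121, 0.0485 and 0 in Dox, 0.987, 0.806 and 1.63 in H2O2 and 0.498, 2.03 and 0.977 in Blank libraries. Dox held 4 reads of it in all, against 54 in Blank (log2 fold change -4.16, SE 1.19, adjusted p = 0.0149). H3c10 had 0.747, 0.179 and 0.284 CPM in D_I, 1.70, 0.308 and 0.877 in H_I, 1.11, 2.71 and 1.86 in B_I, 0.283, 0.388 and 0.0905 in Dox, 0.917, 2.23 and 2.02 in H2O2 and 0.623, 3.14 and 1.88 in Blank libraries; the Dox values lay below the Blank values (log2 fold change -2.86, SE 0.82, adjusted p = 0.0149). The H3 genes called in other comparisons were H3c3, H3c6 and H3c11. H3c3 had 0.436, 0 and 0.738 CPM in D_I, 0.516, 0.740 and 1.08 in H_I, 1.51, 5.55 and 1.16 in B_I, 0.162, 0.388 and 0.317 in Dox, 0.846, 1.36 and 2.56 in H2O2 and 0.498, 2.28 and 1.13 in Blank libraries. H3c6 had 0.0623, 0.238 and 1.02 CPM in D_I, 1.03, 0.308 and 0.472 in H_I, 1.75, 3.03 and 1.35 in B_I, 0.243, 0.0485 and 0.181 in Dox, 1.62, 0.0620 and 4.27 in H2O2 and 0.560, 1.23 and 1.80 in Blank libraries. H3c11 had 0.374, 0.238 and 0.852 CPM in D_I, 0.959, 1.05 and 1.01 in H_I, 1.05, 5.62 and 1.93 in B_I, 0.688, 0.582 and 0.226 in Dox, 1.97, 1.36 and 6.14 in H2O2 and 1.12, 1.91 and 1.43 in Blank libraries. In all 3 the Dox values lay below the Blank values without a call (adjusted p of 0.0953, 0.0657 and 0.126 by edgeR), and B_I replicate 2 and H2O2 replicate 3 were each the highest of their group. Blank replicate 1 was the lowest Blank library for H3c7, H3c10, H3c3, H3c6 and H3c11.

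Core histone H2B held the larger of the rises. H2bc4 had 8.72, 9.9997 and 9.94 CPM in D_I, 10.3, 6.23 and 10.6 in H_I, 5.12, 7.10 and 4.62 in B_I, 12.8, 12.9 and 11.7 in Dox, 11.6, 10.97 and 9.09 in H2O2 and 3.61, 3.27 and 2.48 in Blank libraries. Each Dox value exceeded each Blank value (log2 fold change 1.99, SE 0.25, adjusted p = 7.53e-06 by edgeR), and B_I values also lay above Blank. H2bc3 had 0.436, 0.119 and 0.454 CPM in D_I, 0.221, 0.555 and 0.202 in H_I, 0.873, 3.74 and 0.963 in B_I, 0.283, 0.243 and 0.0905 in Dox, 1.06, 0.248 and 3.42 in H2O2 and 0.685, 2.71 and 1.58 in Blank libraries. It fell in Dox (log2 fold change -2.96, SE 0.95, adjusted p = 0.0293 by edgeR) on 14 reads in Dox and 76 in Blank. The other H2B genes called somewhere were H2bc9, H2bc11, H2bc12 and H2bc14, none of them in Dox against Blank. H2bc9 had 0.747, 0.119 and 0.284 CPM in D_I, 0.516, 0.432 and 1.21 in H_I, 1.28, 3.74 and 1.67 in B_I, 0.485, 0.679 and 0.860 in Dox, 0.987, 1.43 and 1.79 in H2O2 and 0.623, 2.53 and 0.376 in Blank libraries. H2bc11 had 0.0623, 0 and 0 CPM in D_I, 0.295, 0.987 and 0.540 in H_I, 1.45, 0.258 and 0.898 in B_I, 0.0809, 0.728 and 0.362 in Dox, 0.494, 0.248 and 0.932 in H2O2 and 0.249, 0.185 and 0.676 in Blank libraries. H2bc12 had 0.374, 0.238 and 0.227 CPM in D_I, 0.664, 1.11 and 0.675 in H_I, 1.63, 2.90 and 0.449 in B_I, 0.283, 0.146 and 0.272 in Dox, 0.212, 1.05 and 0.699 in H2O2 and 0.249, 0.678 and 0.601 in Blank libraries. H2bc14 had 0.125, 0.714 and 0 CPM in D_I, 0.221, 0.863 and 0.472 in H_I, 1.16, 4.45 and 1.80 in B_I, 0.324, 0.485 and 0.272 in Dox, 1.20, 0.248 and 2.87 in H2O2 and 0.934, 1.23 and 1.05 in Blank libraries. Of these, H2bc14 was below every Blank library in Dox and the other 3 overlapped. The single tested H2A gene, H2ac6, had 0.202, 0.825 and 0.679 CPM in Dox and 0.311, 0.0616 and 0 CPM in Blank libraries and was not called (log2 fold change 2.08, SE 1.09, adjusted p = 0.195 by edgeR).

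**Figure D2:**
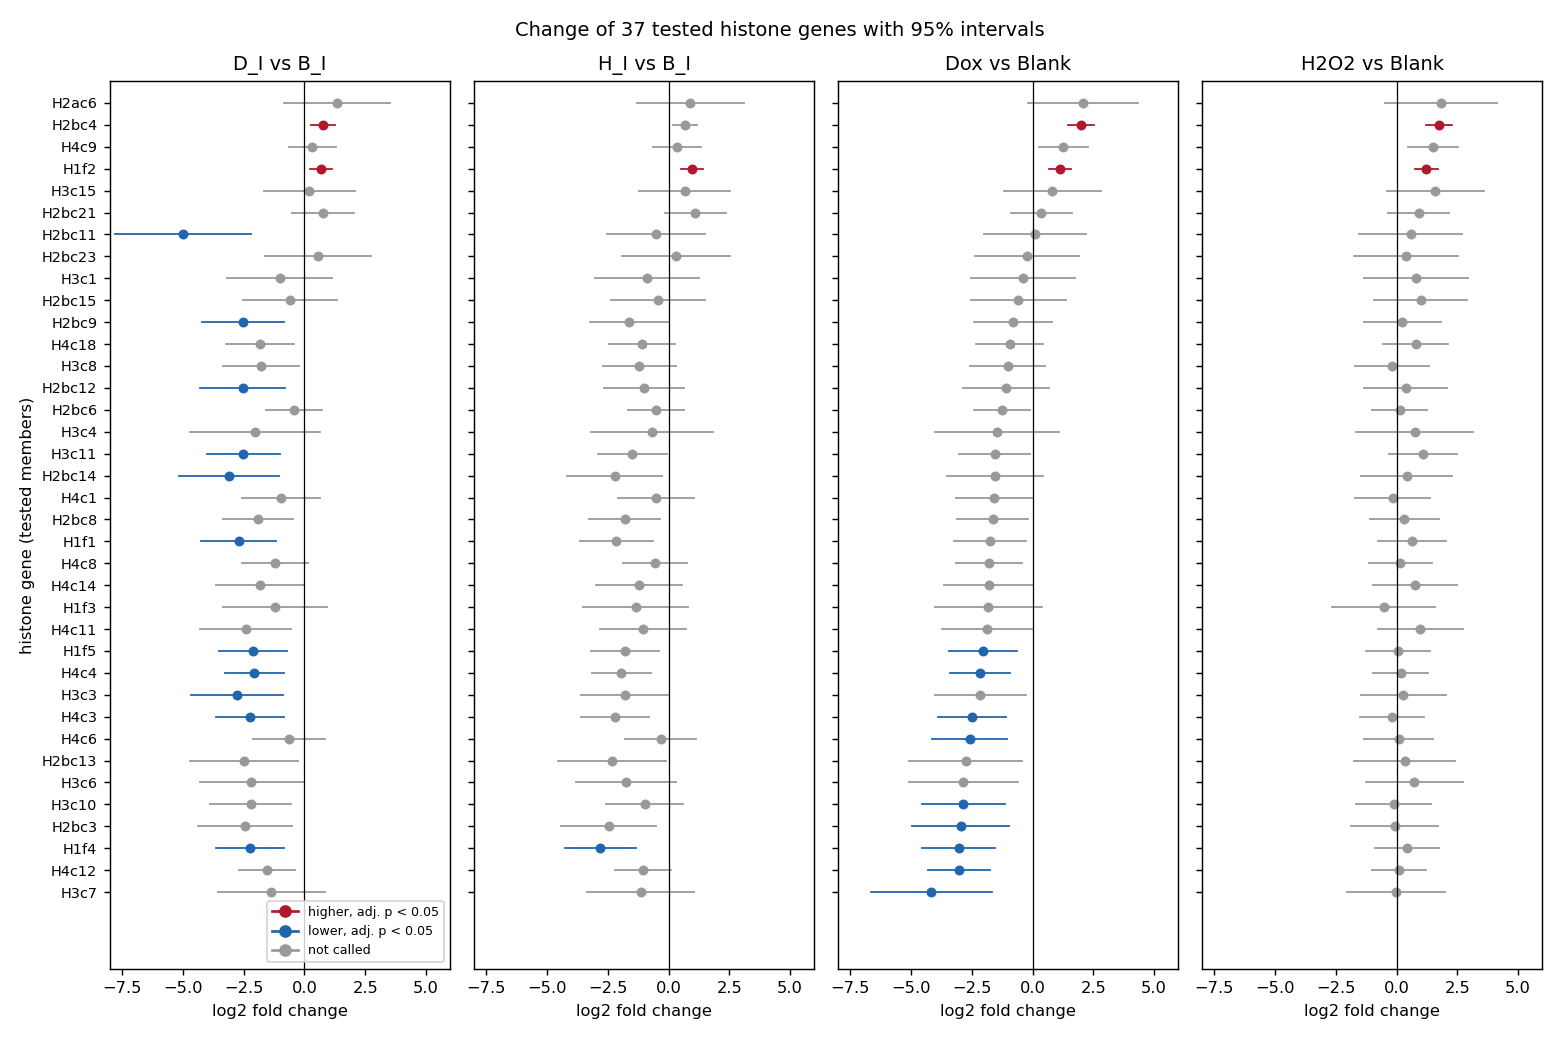
Log2 fold change (x axis) with its 95% interval for the 37 tested members (rows, ordered by Dox vs Blank) in D_I vs B_I, H_I vs B_I, Dox vs Blank and H2O2 vs Blank. Calls at adjusted p under 0.05 are red (higher) or blue (lower): 13, 2, 11 and 2 members in that order of panels.

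Among markers of other cell types, the macrophage and lysosome gene Cd68 was called in several of the same comparisons. It had 23.1, 20.1 and 19.7 CPM in D_I, 9.001, 10.9 and 10.2 in H_I, 3.67, 3.36 and 1.80 in B_I, 17.4, 23.2 and 13.3 in Dox, 10.8, 7.56 and 15.8 in H2O2 and 5.98, 5.67 and 0.977 in Blank libraries. By edgeR it was higher in Dox against Blank (log2 fold change 2.07, SE 0.40, adjusted p = 0.000827), in D_I against B_I (log2 fold change 2.83, SE 0.42, adjusted p = 7.18e-05) and in H_I against B_I (log2 fold change 1.76, SE 0.42, adjusted p = 0.0406). It was the 1 called of 6 tested among 8 macrophage markers, whose summed level ran from 55.9 to 75.9 CPM in D_I, 47.9 to 73.7 in H_I, 36.98 to 59.4 in B_I, 58.1 to 73.1 in Dox, 35.6 to 69.1 in H2O2 and 42.8 to 58.8 in Blank libraries, and none of the 8 was at 0 in every library. The part of these markers in the histone results was not tested.

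Individual libraries weighed on the count in Dox against Blank. It was 6 without Dox replicate 3, 7 without Dox replicate 2 and 6 without Blank replicate 2, and with the other libraries left out in turn it lay between 10 and 13; H1f2, H2bc4, H1f4, H4c3 and H4c12 were called in each of the 18 leave-one-out fits and the 9 other settings tried. H1f5, H4c4, H4c6, H2bc3, H3c7 and H3c10 lost their call in some, with adjusted p up to 0.211 for H1f5. Across the 37 tested members, 17 had every Dox library below every Blank library, beside 16.5% of all genes tested, and 2 had every Dox library above, beside 19.6%.

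The summed level of the 43 members other than H1f2 and H2bc4, a set trimmed after their values were seen and so not tested, was even in Dox and uneven in Blank. It came to 25.1, 21.8 and 26.9 CPM in D_I, 40.1, 28.2 and 28.3 in H_I, 47.2, 125 and 49.7 in B_I, 18.97, 20.7 and 20.9 in Dox, 52.4, 48.4 and 108 in H2O2 and 25.9, 74.3 and 62.8 in Blank libraries. B_I replicate 2 and H2O2 replicate 3 stood far above their fellow libraries, and Blank replicate 1 lay within the range of D_I. By family, the H3 sum was 2.51, 2.77 and 3.21 CPM in Dox against 4.92, 13.2 and 9.92 CPM in Blank, and the H4 sum 7.32, 7.86 and 7.92 CPM in Dox against 8.72, 28.9 and 27.3 CPM in Blank. H1 without H1f2 summed to 2.43, 2.09 and 2.08 CPM in Dox against 4.61, 13.9 and 10.4 CPM in Blank, and H2B without H2bc4 to 6.11, 6.60 and 6.65 CPM in Dox against 7.04, 17.2 and 14.1 CPM in Blank. In these 4 sums the Dox libraries were below all 3 Blank libraries. With H1f2 and H2bc4 kept in, the groups overlapped. All 45 members summed to 52.8, 55.9 and 52.0 CPM in Dox and 38.3, 86.2 and 77.0 CPM in Blank. The full H1 sum was 23.4, 24.5 and 21.5 CPM in Dox and 13.4, 22.5 and 22.1 CPM in Blank. The full H2B sum was 18.9, 19.5 and 18.4 CPM in Dox and 10.6, 20.5 and 16.6 CPM in Blank. The H2A sum, over 5 genes with few reads, overlapped at 0.607, 1.36 and 0.996 CPM in Dox and 0.623, 1.17 and 1.05 CPM in Blank libraries.

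**Figure D3:**
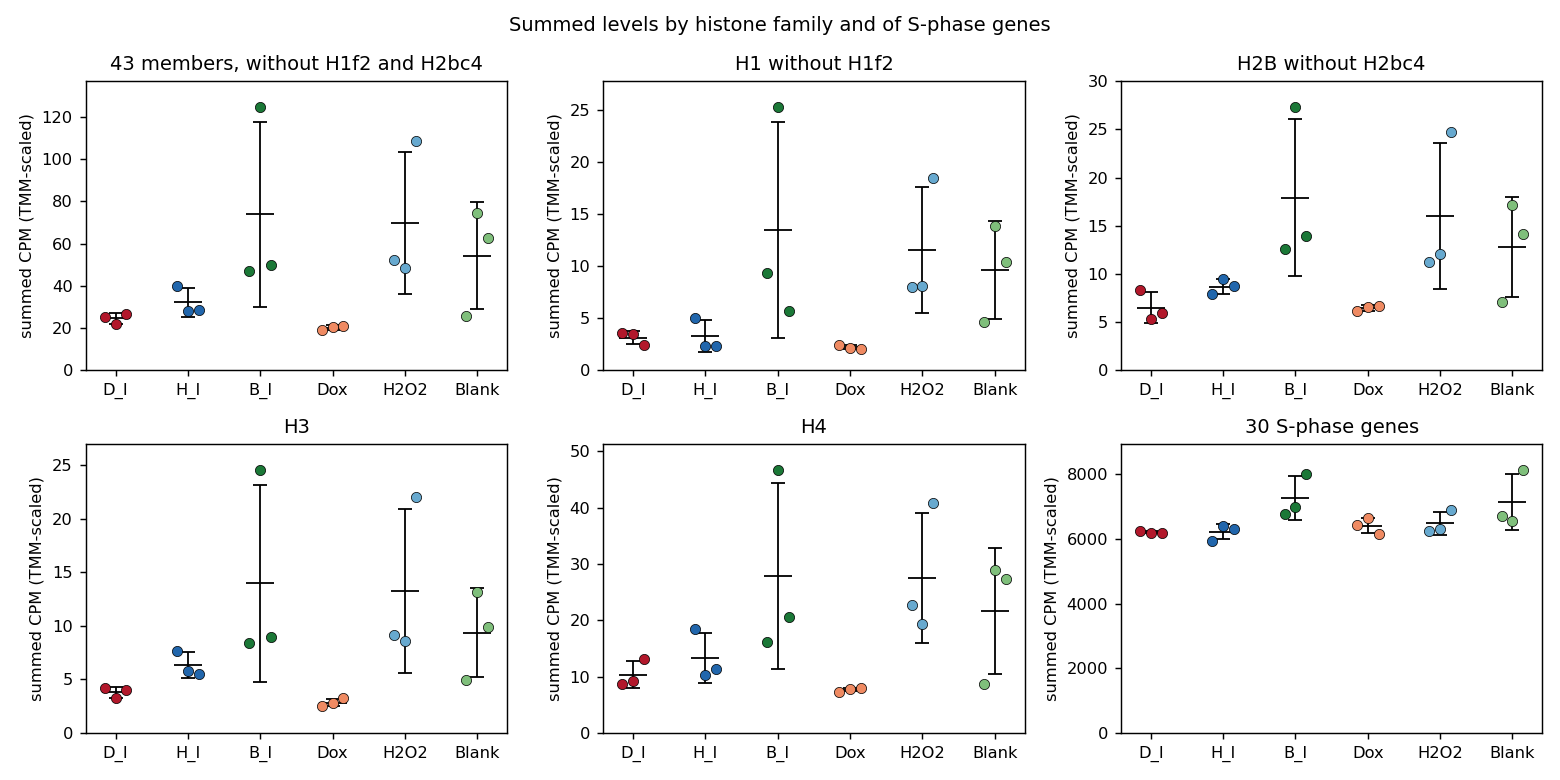
Summed TMM-scaled CPM (y axes, linear, from 0) per library and group. Panels show the 43 members without H1f2 and H2bc4, 4 families, and 30 S-phase genes. The families are H1 without H1f2, H2B without H2bc4, H3 and H4. Points are libraries, and bars and whiskers give the mean and SD of 3. The histone sums lie low and close together in Dox, and B_I replicate 2 and H2O2 replicate 3 stand highest; in the S-phase panel Blank replicate 4 and B_I replicate 3 are the highest.

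With isoliensinine present, doxorubicin again went with higher H1f2 and H2bc4 and lower levels of other histone genes. D_I against B_I shares no library with Dox against Blank. By edgeR, 13 of 37 members were called, 2 higher and 11 lower, where 18.8% of all genes tested were called and 9.41% in each direction. The median log2 fold change of the tested members was -1.83, with 30 below 0, beside 0.08 over all genes. H2bc4 (log2 fold change 0.77, SE 0.24, adjusted p = 0.0286) and H1f2 (log2 fold change 0.68, SE 0.22, adjusted p = 0.0320) rose, and for H1f2 D_I replicate 3 lay below B_I replicate 2. The lower calls included H4c4 (log2 fold change -2.06, SE 0.58, adjusted p = 0.0157), H4c3 (log2 fold change -2.24, SE 0.67, adjusted p = 0.0222), H1f4 (log2 fold change -2.24, SE 0.67, adjusted p = 0.0233) and H1f5 (log2 fold change -2.12, SE 0.68, adjusted p = 0.0326). H1f1 fell 6.50-fold, H3c11 5.76-fold, H3c3 6.85-fold, H2bc9 5.75-fold, H2bc12 5.82-fold and H2bc14 8.65-fold. H2bc11 had 1 read in the 3 D_I libraries and 43 in the 3 B_I libraries; scaled, that is a level 45.0 times as high in B_I, with an exact 95% counting interval of 7.65 to 1817.

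The members called in both comparisons were 6, each in the same direction: H1f2 and H2bc4 higher, H1f4, H1f5, H4c3 and H4c4 lower. That is 54.5% of the 11 in Dox against Blank and 46.2% of the 13 in D_I against B_I. Over all 13375 genes tested, 1776 were called in both, 61.3% of those called in Dox against Blank and 70.5% of those called in D_I against B_I. H4c12, the lower call with the smallest adjusted p in Dox, stood at log2 fold change -1.55, SE 0.56, adjusted p = 0.0557 by edgeR in D_I against B_I, with no overlap between groups.

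**Figure D4:**
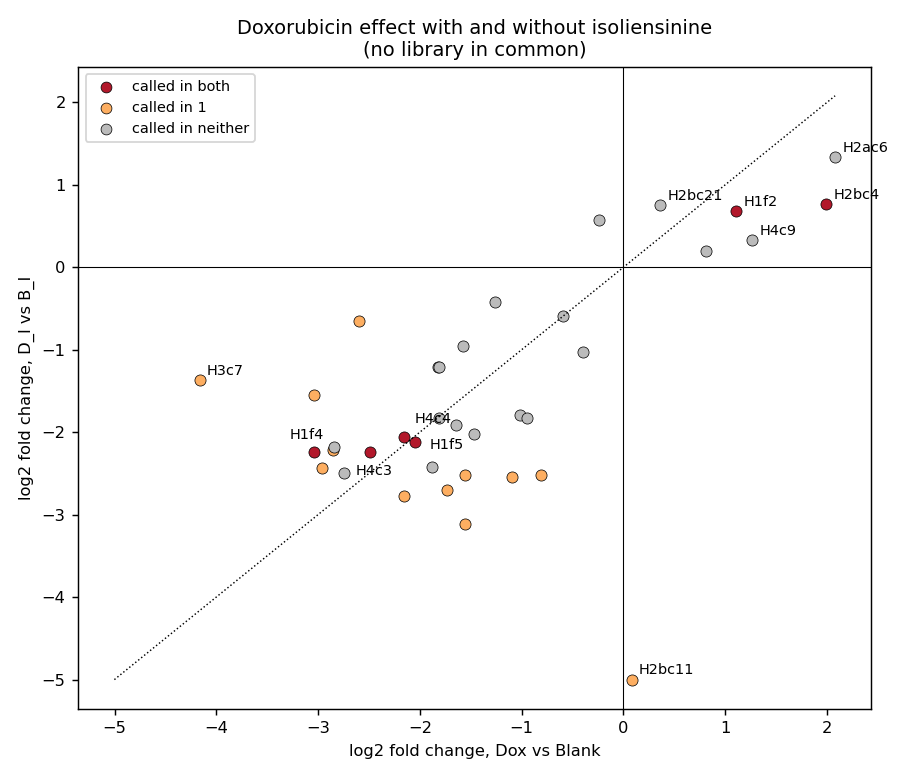
Log2 fold change of each of the 37 tested members in Dox vs Blank (x axis) and in D_I vs B_I (y axis), which have no library in common; the dotted line marks equal change. The 6 genes called in both are red, and H2bc11, near 0 on the x axis, lies lowest on the y axis, from 1 read in D_I.

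The count in D_I against B_I rested more on single libraries: it was 1 without D_I replicate 2, 3 without B_I replicate 2, 5 without D_I replicate 3 and 7 without D_I replicate 1. None of the 13 calls held in every setting. B_I replicate 2 was the highest library for the histone sum, and without it the median of the tested members was -1.22 and 27 were below 0. Without Blank replicate 4 and B_I replicate 3, the libraries highest in smooth muscle markers, 13 members were called, all lower, so neither H1f2 nor H2bc4 was then called.

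In cells given H2O2 alone, H1f2 and H2bc4 rose, and no histone gene was called lower. By edgeR, 2 of 37 members were called in H2O2 against Blank, both higher, beside 1.43% of all genes (0.636% higher and 0.793% lower): H2bc4 (log2 fold change 1.75, SE 0.25, adjusted p = 0.000537) and H1f2 (log2 fold change 1.23, SE 0.22, adjusted p = 0.00504). H4c9, whose H2O2 values of 2.89, 3.35 and 2.87 CPM lay above the Blank values of 0.311, 1.05 and 1.88 CPM, missed the threshold (log2 fold change 1.51, SE 0.49, adjusted p = 0.141 by edgeR). The median of the tested members was 0.38, with 7 below 0, beside -0.02 over all genes. Without H2O2 replicate 3 that median was -0.08, with 22 below 0, while both calls held with any 1 library left out. Dox against Blank and H2O2 against Blank share the Blank libraries. When only H2O2 and Blank libraries were fitted, no member passed, and H2bc4 and H1f2 had adjusted p of 0.121 and 0.178 by edgeR.

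H1f2 also rose in H_I against B_I, which shares no library with H2O2 against Blank. By edgeR, 2 of 37 members were called, beside 1.46% of all genes (0.464% higher and 0.994% lower): H1f2 higher (log2 fold change 0.98, SE 0.22, adjusted p = 0.0266), with all H_I values above all B_I values, and H1f4 lower (log2 fold change -2.81, SE 0.71, adjusted p = 0.0492). H2bc4 stood at log2 fold change 0.69, SE 0.24, adjusted p = 0.150 by edgeR and overlapped through H_I replicate 2. The median of the tested members was -1.05, with 30 below 0, and 10 had every H_I library below every B_I library, beside 12.1% of all genes tested. The summed colon markers given above overlapped in H_I against B_I, at 235 CPM or more in H_I and up to 284 CPM in B_I. In H2O2 libraries they reached at most 181 CPM, below every H_I library. Liver markers summed to 390.1, 149 and 142 CPM in H_I, 119, 76.4 and 88.9 in B_I and 70.01, 53.99 and 139 in H2O2 libraries. The part of these markers in H_I against B_I and in H_I against H2O2 was not tested. By edgeR no colon marker was called in either comparison, and of the 8 liver markers 1 was called, Trf, higher in H_I against B_I. No member was called when H_I replicate 1, 2 or 3 was left out, and 1 was called when B_I replicate 2, B_I replicate 3 or any of 9 libraries of other groups was left out.

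Isoliensinine was set against the matching group without it in 3 comparisons, and no histone gene was called in any of them by edgeR. In B_I against Blank, beside 0.0% of all genes called, H2bc4 had the smallest p (log2 fold change 0.84, SE 0.25, adjusted p = 0.917), its B_I values lay above the Blank values, and the median of the tested members was 0.63, or -0.01 without B_I replicate 2. In D_I against Dox, again beside 0.0%, H4c12 had all 3 D_I values above the Dox values (log2 fold change 1.73, SE 0.61, adjusted p = 0.948), H2bc11 had 1 read in D_I and 25 in Dox libraries, and the median was 0.34. H1f2 and H2bc4 differed by -0.31 and -0.38 on the log2 scale there, with 95% intervals of -0.75 to 0.13 and -0.87 to 0.10. In H_I against H2O2, beside 0.0%, 34 of 37 tested members were below 0, with a median of -1.03 beside 0.02 over all genes. There 11 members had every H_I library below every H2O2 library, beside 5.12% of all genes tested. H1f4 led them, with 0.812, 0.432 and 0.540 CPM in H_I and 2.47, 2.67 and 5.98 CPM in H2O2 (log2 fold change -2.63, SE 0.71, adjusted p = 0.288 by edgeR), and it alone passed with DESeq2. Without H2O2 replicate 3, the highest library of its group, the median in H_I against H2O2 was -0.50.

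At an unadjusted p under 0.05, 2, 2 and 7 members and 640, 556 and 915 genes stood out in B_I against Blank, D_I against Dox and H_I against H2O2. DESeq2 called 1, 25 and 70 genes in them. Whether isoliensinine acted differently with a stressor was tested as the difference between its effects with and without one. By edgeR no member and 0.0% of genes were called, for doxorubicin or for H2O2, and at an unadjusted p under 0.05 there were 2 and 7 members among 522 and 813 genes; DESeq2 called no member and 3 and 2 genes. For H2O2 36 of the 37 differences were below 0, with a median of -1.42 on the log2 scale beside 0.03 over all genes. H1f4 had the lowest (log2 fold change -3.22, SE 0.94, adjusted p = 0.765 by edgeR). In this difference H2O2 and B_I both enter with a minus sign. Each holds a library far above its fellows in the sum of 43 members: H2O2 replicate 3 (108 CPM) and B_I replicate 2 (125 CPM). Members share libraries and sequence windows, so the 36 values below 0 are not separate evidence.

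Set directly against each other, doxorubicin gave lower levels of 12 histone genes than H2O2. In Dox against H2O2, 12 of 37 members were called by edgeR, all lower in Dox, where 13.1% of all genes tested were called, 6.73% higher and 6.33% lower. H4c12 (log2 fold change -3.12, SE 0.61, adjusted p = 0.00152) and H1f4 (log2 fold change -3.45, SE 0.73, adjusted p = 0.00281) led and were called in every setting. H4c4, H4c3, H4c6, H4c11, H3c7, H3c10, H3c11, H3c6, H1f1 and H1f5 were lower by 4.27- to 17.4-fold. H1f2 and H2bc4 were not called, at -0.12 and 0.24 on the log2 scale, with 95% intervals of -0.56 to 0.32 and -0.24 to 0.73. The count was 2 without H2O2 replicate 3 and without Dox replicate 3, and 5 without Dox replicate 1 and without Dox replicate 2. Colon markers in H2O2 replicate 3 stood at 181 CPM, above its fellow libraries, and their part in the result was not tested.

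Transcript ends differed among the members. In GENCODE M21, 12 transcripts ended within 60 bases of the stem-loop, 9 ended within 60 bases of the stop codon with no stem-loop annotated, 19 ran further past the stem-loop and 5 ran further with none. Over the tested members of these classes, the median log2 fold change in Dox against Blank was -1.09 (9 genes), -2.04 (7 genes), -1.73 (18 genes) and 0.36 (3 genes). In D_I against B_I the medians were -1.82, -2.22, -1.87 and 0.76. The last class held H2bc4 and H2bc21, above 0 in Dox against Blank, and H2bc23, below 0 there (log2 fold change -0.24). The third held H1f2, H4c9, H2ac6 and H3c15, which were above 0 in Dox, beside 14 genes below 0. H2bc21, in whose annotated transcript no stem-loop was found, had 1.82, 1.26 and 1.86 CPM in Dox and 0.623, 1.79 and 1.43 CPM in Blank libraries, which overlapped. These medians are a description of how the members fall by annotation, with no test.

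Cut into windows of 75 bases, 41 of the 45 transcripts share at least 1 window with another gene, and in 17 of them fewer than 50% of windows are unique. H1f2 (93.3% unique), H4c4 (96.3%), H1f1 and H1f5 (every window unique) are mostly distinct, H2bc4 (72.9%) and H1f4 (71.6%) less so, and H4c12 (31.9%), H3c11 (21.7%) and H3c10 (6.53%) mostly shared. By the deposited coordinates, the span of H1f4 also overlaps that of H2bc6 on the same strand. How reads in that overlap were counted is stated in no source used here. No source used here says how the counting treated reads that match several genes or whether it used strand. The values of members with mostly shared windows are therefore uncertain as values of those genes alone. Such members include H4c12, H3c10, H3c11, H2bc12, H3c6 (40.6% unique), H2bc11 (49.6%), H3c15 (37.4%) and H2bc23 (4.07%).

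Of 22 tested genes for histone mRNA processing and histone gene transcription, 2 rose and 3 fell in Dox against Blank by edgeR, beside 10.3% and 11.4% of all genes tested, with a list median of 0.03. Lsm11 (log2 fold change -0.70, SE 0.20, adjusted p = 0.0122) and Lsm10 (log2 fold change -0.53, SE 0.15, adjusted p = 0.0116), proteins of the U7 particle, fell, as did the Slbp partner Mif4gd (log2 fold change -0.55, SE 0.13, adjusted p = 0.00353), and the cap-binding subunit Ncbp1 rose (log2 fold change 0.55, SE 0.10, adjusted p = 0.000412). Slbp itself had 67.1, 61.9 and 70.2 CPM in Dox and 75.8, 91.1 and 64.8 CPM in Blank and was not called (log2 fold change -0.22, SE 0.14, adjusted p = 0.286 by edgeR). In D_I against B_I 2 of the 22 rose and 3 fell, beside 9.41% of all genes in each direction. Those that fell were Lsm10, Lsm11 (log2 fold change -0.58, SE 0.20, adjusted p = 0.0410 by edgeR) and Mif4gd. The 2 that rose were Gon4l (log2 fold change 0.62, SE 0.17, adjusted p = 0.0128 by edgeR) and Upf1 (log2 fold change 0.53, SE 0.16, adjusted p = 0.0201 by edgeR). H2O2 against Blank called none of the 22 by edgeR. H_I against B_I called 1, Mif4gd, lower (log2 fold change -0.51, SE 0.13, adjusted p = 0.0489 by edgeR), beside 0.994% of all genes lower.

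Among 21 histone chaperones, 2 rose and 3 fell in Dox against Blank by edgeR, and 1 rose and 3 fell in D_I against B_I, against the same shares of all genes. Chaf1b, a subunit of the complex that loads histones at replication forks, fell in both (log2 fold change -0.99, SE 0.09, adjusted p = 1.20e-07 in Dox and log2 fold change -0.98, SE 0.09, adjusted p = 2.11e-07 in D_I), and Hjurp, the chaperone of the centromeric variant Cenpa, rose in both. Of 30 S-phase and DNA replication genes, 3 rose and 6 fell in Dox against Blank, and 4 rose and 7 fell in D_I against B_I, beside 10.3% higher and 11.4% lower over all genes in Dox against Blank and 9.41% each way in D_I against B_I, with list medians of -0.12 and -0.19. Rrm2 (log2 fold change 0.77, SE 0.11, adjusted p = 2.86e-05), a subunit of the enzyme that makes deoxynucleotides, and Mcm10 (log2 fold change 0.74, SE 0.12, adjusted p = 0.000121) rose in Dox, while cyclin E1 (Ccne1, log2 fold change -0.67, SE 0.12, adjusted p = 0.000303) and DNA ligase 1 (Lig1, log2 fold change -0.45, SE 0.08, adjusted p = 0.000460) fell, by edgeR. The summed level of these 30 genes was 6446, 6638 and 6165 CPM in Dox and 6701, 6567 and 8133 CPM in Blank libraries. In B_I replicate 2 and H2O2 replicate 3, the libraries with the highest histone sums, it was 7001 and 6894 CPM, the middle value of B_I and the highest of H2O2. In H2O2 against Blank no gene of these lists was called by edgeR. In H_I against B_I 1 was, the S-phase gene Cdt1, lower (log2 fold change -0.52, SE 0.12, adjusted p = 0.0269 by edgeR), beside 0.994% of all genes lower.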

How the data were processed

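Poly-A mRNA was captured on poly-T beads from total RNA, per the labels' protocols, and fastp 0.22.0, HISAT2 2.1.0 and HTSeq 0.9.1 are named in the submitters' processing notes; the build, strand setting and treatment of multiply aligned reads are named in no source used here. The deposited table holds read counts per gene, which were tested, and FPKM values; per the file headers both cover the same 18 libraries, and 100.0% of FPKM values equal the count per length and library total within a relative 1e-06. FPKM was used to compare levels between genes.

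One model over all 18 libraries was fitted with edgeR 4.0.16 (R 4.3.3): TMM scaling, filterByExpr on the 6 groups, robust quasi-likelihood, 10 contrasts, and Benjamini-Hochberg adjustment over 13375 genes, with calls at adjusted p under 0.05. The script was checked on simulated counts. No 2 libraries of a group agreed within sampling noise (chi-square per degree of freedom at least 5.51). Alternatives were other scalings, no filter, a replicate block, fits of only the groups compared, DESeq2 1.42.0, limma 3.58.1 on log2(FPKM + 1), and libraries left out. Members and gene lists were chosen with earlier results of these data known. Named with all values are members called in at least 1 of the 8 two-group comparisons and the 3 highest by FPKM. From other lists, up to 4 called genes per comparison with the smallest adjusted p are named. Slbp, H1f3, H3c15, H4c9, H2ac6, H2bc21 and H2bc23 are named beyond that rule, chosen with their values seen. So is Lsm11 in D_I against B_I. Sequences come from GENCODE M21 transcripts (45 members matched) and RefSeq promoters (40 matched). A list of 12 RNAs without a poly-A tail is not analysed here. Counting intervals cover counting error only.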

Additional observations from a re-analysis of the deposited data

How the results depend on the processing

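Among 1340 recomputed values, a direction could reverse only in the 1070 changes of single called members, since the rest were counts of calls. None of the 1070 reversed, 908 kept their call and 162 lost it. These members were picked by their calls in the same libraries, so this is no independent check. The median of the tested members, not among these, changed sign in H2O2 against Blank without H2O2 replicate 3 (-0.08, against 0.38) or without it and H_I replicate 1 (-0.05), in B_I against Blank without B_I replicate 2 (-0.01, against 0.63), and in the difference of isoliensinine effects with and without doxorubicin (-0.07) without B_I replicate 2 (0.40), Dox replicate 1 (0.09) or Blank replicate 1 (0.30). Counts of called members moved by more than 1.5 times in these cases: in H_I against B_I (2 in the reported fit) 1 with RLE scaling, 1 with upper-quartile scaling, 4 with DESeq2, and 0 with only those groups or without H2O2 replicate 3 and H_I replicate 1, a pair chosen after seeing the data; in H2O2 against Blank 0 with only those groups, against 2; in D_I against B_I 8 with only those groups, against 13; in H_I against H2O2 1 with DESeq2, against 0; and in Dox against H2O2 2 without H2O2 replicate 3 and H_I replicate 1, against 12. The cause was not tested. Leaving out each library in turn gave 6 to 13 called members in Dox against Blank, 2 to 3 in H2O2 against Blank, 1 to 17 in D_I against B_I, 0 to 2 in H_I against B_I, 2 to 15 in Dox against H2O2, and 0 to 0 in the other comparisons. With a replicate block the counts were 10 in Dox against Blank, 12 in D_I against B_I and 13 in Dox against H2O2. They were 3 in H2O2 against Blank and 2 in H_I against B_I. Whether the replicate numbers pair the samples is not known. Over 40 same-numbered pairs the correlation of deviations ran from -0.19 to 0.28, with a median of 0.05 and 9 over 0.1. Over 95 differently numbered pairs it ran from -0.33 to 0.33, with a median of -0.01 and 14 over 0.1. Such correlations cannot show whether same-numbered libraries shared a batch. On log2(FPKM + 1), limma put the median of all genes at 0.18 in Dox against Blank and 0.17 in D_I against B_I, and 2625 of 3675 and 2333 of 3209 called genes were then higher, against 1372 of 2896 and 1259 of 2518; the members' medians there were -0.82 and -1.03. In H2O2 against Blank, 85 of 191 called genes were higher with TMM, 81 of 148 with RLE and 127 of 219 with upper-quartile scaling. In Dox against H2O2 the split was 900 of 1746 with TMM and 674 of 1710 with RLE, and in H_I against B_I 62 of 195 with TMM, 75 of 178 with upper-quartile scaling and 270 of 364 with limma; in H2O2 against Blank limma gave 396 of 504. Depth limits most members: over members and libraries the median count was 11.5 reads, with quartiles of 4 and 25. Separately from depth, the median biological coefficient of variation of the tested members, a spread beyond counting noise, was 0.559.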

Other observations

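Histone genes that are used outside S phase, described here as a further group, were lower in more cases than higher after doxorubicin. Of 11 variants tested, 1 was called higher and 5 lower in Dox against Blank by edgeR, beside 10.3% higher and 11.4% lower over all genes, and 1 higher and 6 lower in D_I against B_I, beside 9.41% each way, with list medians of -0.24 and -0.37 on the log2 scale beside 0.08 over all genes in both. H1f10, a linker variant, had 32.7, 37.1 and 26.4 CPM in Dox and 93.3, 81.3 and 89.5 CPM in Blank libraries (log2 fold change -1.46, SE 0.12, adjusted p = 5.15e-08 by edgeR). H2az1, a variant of promoter nucleosomes, had 422, 473 and 459.7 CPM in Dox and 631, 628 and 650.5 CPM in Blank (log2 fold change -0.50, SE 0.08, adjusted p = 0.000195 by edgeR), and H2az2 fell too (log2 fold change -0.80, SE 0.16, adjusted p = 0.00110 by edgeR). Cenpa, the variant that marks centromeres, was the 1 that rose, with 171, 192 and 177 CPM in Dox and 95.7, 87.8 and 120.0 CPM in Blank (log2 fold change 0.83, SE 0.12, adjusted p = 2.26e-05 by edgeR). The fall of H1f10 was log2 fold change -1.02, SE 0.12, adjusted p = 5.89e-06 in D_I against B_I by edgeR. None of the 11 was called in H2O2 against Blank, H_I against B_I or any comparison of isoliensinine with its matching group by edgeR; in Dox against H2O2, 4 were lower and Cenpa higher.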
